A study of Homo sapiens with 8 samples.

Results

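The response of chronically exposed (CE) MDA-MB468 cells to a short treatment with Acetalax was described from 2 RNA-seq libraries, 1 of CE cells given Acetalax and 1 of CE control cells. The members are all gene identifiers of the deposited count table whose mean over these libraries was at least 5 CPM (the count on a gene, scaled so that every library has the same total), which kept 10880 of 55679. MDA-MB468 is a human triple-negative breast cancer line with a basal-like epithelial phenotype. The CE cells descend from 1 series of cultures grown in rising concentrations of Acetalax, up to 40 μmol/L, and had been without the drug for 2 weeks. They then received either no drug or 1 μmol/L Acetalax for 6 hours. The study compared parental and CE cells of MDA-MB468 and of BT549, another triple-negative line, each with and without Acetalax, which gave 8 samples in 8 groups. Each group holds 1 library, so no difference within the CE pair has a replicate check or a test. A fit of Acetalax over the 4 combinations of line and exposure was not run. The ratios are therefore given with 95% exact (Clopper-Pearson) intervals that cover counting error only.

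Acetalax is oxyphenisatin acetate, a diphenolic compound formerly used as a laxative, and the study addressed whether it acts through TRPM4, a channel that passes monovalent cations such as sodium when calcium rises inside the cell. Cells chronically exposed to a toxic compound often lose a target, export or metabolise the compound faster, or change how they respond to the injury. Within hours, cells under membrane or growth factor stress typically transcribe early genes of the AP-1, NF-kB and MAPK pathways, while slower programmes such as cell division and lineage identity shift later.

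The libraries of the series held from 42261122 to 54241728 counts on genes, with 47557541 in the treated and 44147440 in the control CE library. The marker list for breast epithelium held basal genes, such as KRT5 and KRT17, and luminal or general epithelial genes, such as KRT8, KRT18 and EPCAM. All 14 of its 14 genes had a mean above 5 CPM in the CE pair, KRT6B only through the Acetalax library. Their summed level was 13389.9 CPM in the control and 19319.5 CPM after Acetalax. At least 2-fold higher were 4 of them, EGFR, KRT6B and KRT17 included, against 1.54% of all genes. Lower by any amount were 3, KRT19 the most, from 2719 to 1905 CPM. The basal keratin KRT14, which the rule for named genes does not cover, lay near the limit. It had 5.10 and 5.89 CPM in CE cells against 56.6 and 64.6 CPM in parental cells. In such bulk RNA a change in the share of a kind of cell and a change in RNA per cell cannot be told apart. Markers of other cell types were low. The 14 blood cell markers summed to 24.03 and 17.2 CPM, nearly all of it on CD14 and CSF1R, and 8 of them were at 0 counts. PTPRC, the pan-leukocyte gene, had 2 and 5 counts. The 10 fibroblast markers summed to 16.8 and 21.4 CPM, and the 7 endothelial markers found in the table to 5.66 and 9.63 CPM, of which CDH5 held most. Of the receptors that define the triple-negative class, PGR had 0 counts in both CE libraries, which allows up to 3 counts in each, ESR1 had 5.12 and 5.15 CPM, and ERBB2 had 95.2 and 50.8 CPM.

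TRPM4, the proposed target (chromosome 19, 49660998 to 49715093, hg19), was still transcribed in CE cells. In the paper, Western blots showed almost no TRPM4 protein in the resistant cells of both lines, while its transcripts were described as unchanged. The values here are of RNA and do not measure the protein. The RNA level of TRPM4 was 60.2 CPM in the control (2656 counts) and 58.96 CPM after Acetalax (2804 counts), a log2 ratio of -0.03 (-0.11 to 0.05). The 2 CE libraries thus differed by less than counting error. In parental cells TRPM4 had 49.01 and 47.8 CPM, a ratio of -0.04, and the CE and parental ratios differed by 0.01 (-0.11 to 0.12). Between the control libraries TRPM4 was higher in CE than in parental cells, by 0.30 on the log2 scale. That difference rests on 1 library a side and was not tested.

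Acetalax raised and lowered similar numbers of genes in CE cells. Of the 10880 genes, 168 (1.54%) were at least 2-fold higher after Acetalax and 180 (1.65%) at least 2-fold lower. At 1.5-fold the numbers were 569 higher (5.23%) and 660 lower (6.07%). The balance depended on the scaling. With edgeR's TMM factors 222 genes were higher and 137 lower at 2-fold, and with DESeq2's size factors 218 and 139. These factors moved the median log2 ratio of all genes from -0.05 to 0.04 in both cases, a shift of 0.09 and 0.08. The middle of the distribution was narrow, with the 5th and 95th percentiles of the log2 ratio at -0.64 and 0.60. Counting error was small beside this: its median 95% interval reached 0.10 on either side, and 73.7% of the genes had an interval that excluded 0. The number of cultures, rather than depth, limits these values.

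The 2-fold higher genes included 158 protein-coding genes, 8 long intergenic noncoding RNAs and 2 antisense RNAs, and the 2-fold lower genes 167 protein-coding genes. Of the higher genes, 35 lay under 5 CPM in the control library and 21 rose at least 4-fold, 8 of them at least 8-fold. Of the lower genes, 51 lay under 5 CPM after Acetalax, 15 fell at least 4-fold and 2 at least 8-fold.

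**Figure D1:**
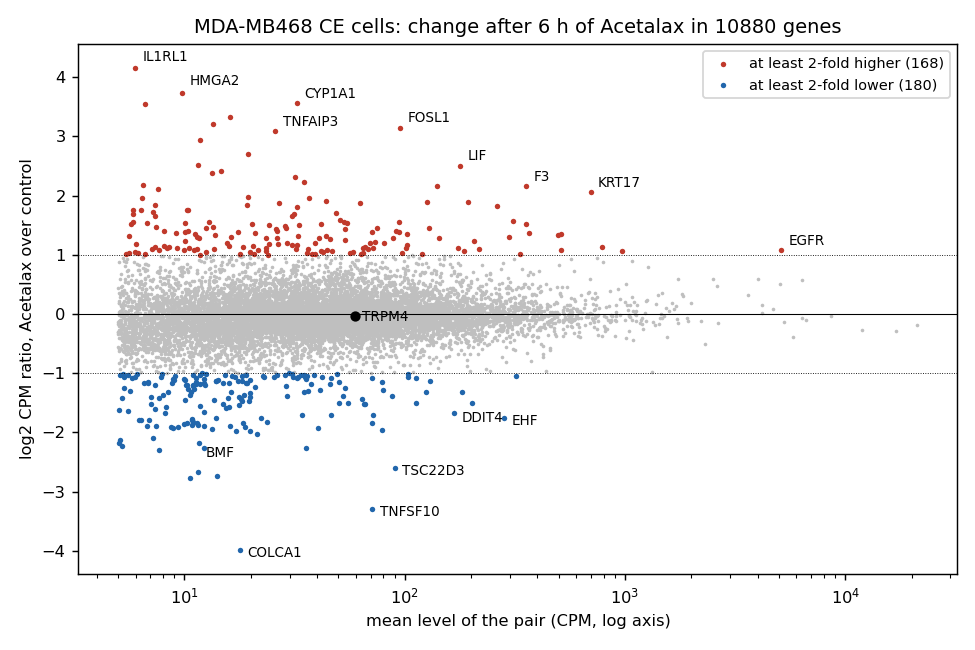
Each point is 1 of 10880 genes in MDA-MB468 CE cells, with its mean CPM over the control and Acetalax libraries on a log axis and its log2 CPM ratio (Acetalax over control) on the vertical axis. The dotted lines mark 2-fold. Red points are the 168 genes at least 2-fold higher and blue points the 180 at least 2-fold lower. The black point is TRPM4, which lies on the line of no change.

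The gene with the largest ratio was IL1RL1, the receptor for the cytokine IL-33. It rose from 0.634 CPM in the control to 11.3 CPM after Acetalax (28 and 537 counts), a log2 ratio of 4.15 (3.61 to 4.76). HMGA2, a chromatin-binding protein of embryonic and tumour cells, rose from 1.36 CPM in the control to 18.2 CPM, a ratio of 3.74 (3.36 to 4.14). Here and below levels run from control to Acetalax, and values in parentheses after them are log2 ratios with, where given, the counting interval. CYP1A1, a cytochrome P450 that oxidises planar aromatic compounds (chromosome 15, 75011883 to 75017951, hg19), rose from 5.07 CPM in the control to 60.01 CPM, a ratio of 3.56 (3.37 to 3.77). All these started low in the control. LIF, an IL-6 family cytokine, and FOSL1, the AP-1 subunit FRA-1, did not. FOSL1 rose from 19.3 CPM in the control to 171 CPM, which is 8.85-fold (3.15, 3.04 to 3.25). LIF rose from 53.4 CPM in the control to 303 CPM, which is 5.67-fold (2.50, 2.44 to 2.57).

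Keratins of hair and of wounded epidermis made up 4 of the other 10 largest rises. KRT75, a hair follicle keratin, had a log2 ratio of 3.55 (1.04 to 12.2 CPM), and the hair keratin KRT34 had 2.94 (2.72 to 20.8 CPM). KRT6B had 2.42 (4.64 to 24.8 CPM) and KRT6A 2.32 (10.6 to 52.7 CPM). KRT6A and KRT6B are near-identical copies, and how reads were divided between them is uncertain. The keratin-associated protein gene KRTAP3-1 had a ratio of 2.7. The other 5 were the chemokine gene IL8 (3.32), the growth factor-like IGFL1 (3.20), the ubiquitin-editing NF-kB inhibitor TNFAIP3 (3.09), the actin-binding NEXN (2.51) and the cell adhesion molecule CLMP (2.38).

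The largest fall was in COLCA1, a transmembrane protein gene named from a colorectal cancer risk locus, which went from 33.7 CPM in the control to 2.12 CPM (1488 and 101 counts), a log2 ratio of -3.99 (-4.29 to -3.70). TNFSF10, which encodes the death ligand TRAIL, fell from 129 CPM in the control to 13.2 CPM, which is 9.82-fold (-3.30, -3.42 to -3.18). TSC22D3, the glucocorticoid-induced leucine zipper, fell from 154 CPM in the control to 25.4 CPM (-2.60, -2.69 to -2.51). These 3 were well expressed in the control, so their falls do not rest on few counts. Transcription regulators in the same set were the zinc finger genes IKZF2 (-2.73) and ZBTB7C (-2.66), and POU2AF1 (-2.23), a coactivator best known in B cells. The others were COLCA2 (-2.77), YPEL2 (-2.29), RCSD1 (-2.27), the kinase-anchoring AKAP6 (-2.26), the pro-apoptotic BMF (-2.17), the small GTPase RASL11A (-2.17), the noncoding LINC00578 (-2.13), FRMD4B (-2.10) and the arrestin-like ARRDC3 (-2.02).

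**Figure D2:**
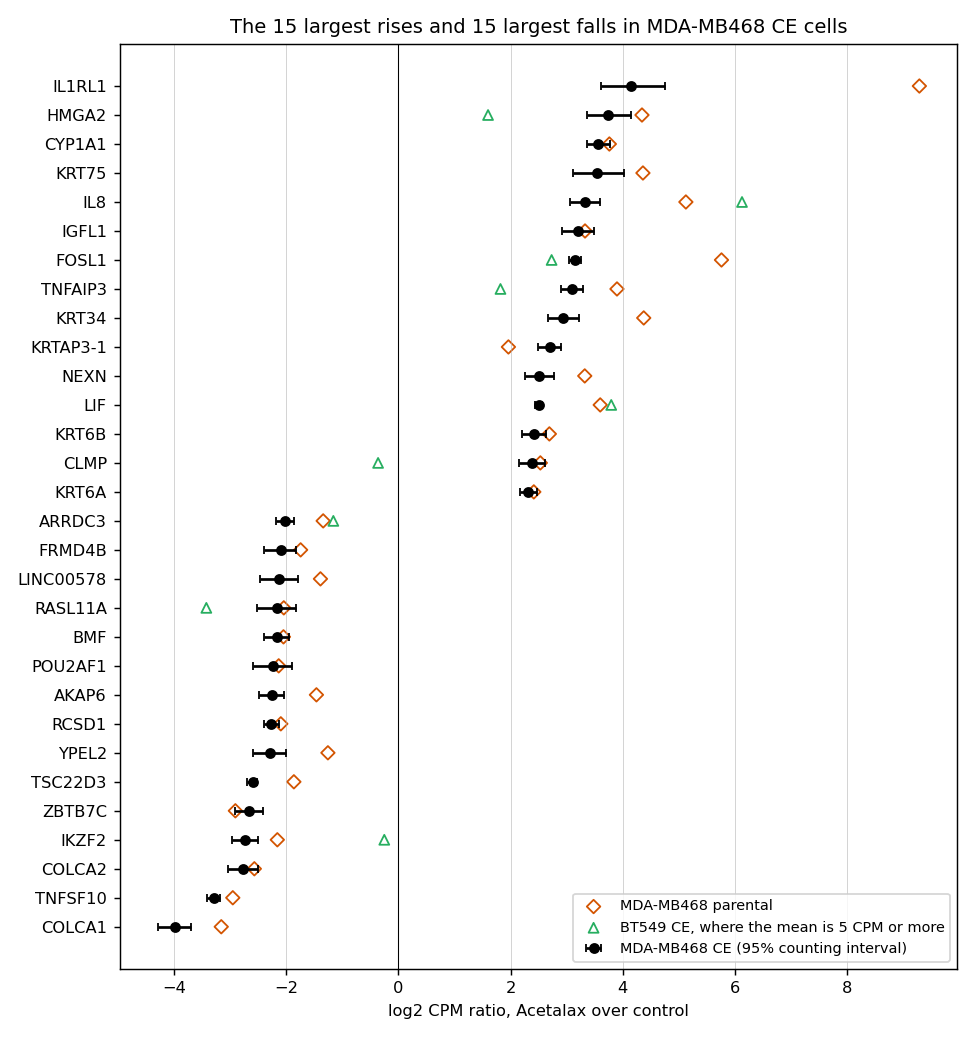
The 15 largest rises and the 15 largest falls in MDA-MB468 CE cells, with the log2 CPM ratio on the horizontal axis. Black points are CE cells with 95% counting intervals, orange diamonds the parental cells, and green triangles BT549 CE cells where the gene had a mean of 5 CPM or more. The CE and parental points lie on the same side of 0 for all 30 genes. BT549 CE cells reached 5 CPM for few of them, and CLMP and IKZF2 stayed near 0 there.

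Some of these genes are neighbours on the genome. C11orf53, COLCA1, COLCA2 and POU2AF1 are consecutive among the measured genes within 111126707 to 111326355 of chromosome 11 (hg19), and all 4 fell, with log2 ratios from -3.99 to -1.76. COLCA1 and COLCA2 lie close together on opposite strands, and whether strand was used in counting is not stated, so their values may not be separate. KRT75, KRT6B and KRT6A are consecutive on chromosome 12 (52817854 to 52887041, hg19) and all rose, by 2.32 to 3.55 on the log2 scale, and KRT23, KRTAP3-1 and KRT34 on chromosome 17 (39078948 to 39538655, hg19) rose by 1.37 to 2.94. Of 10839 pairs of neighbouring measured genes, 8 were both at least 2-fold higher and 10 both at least 2-fold lower. C11orf53 and KRT23 were singled out after their values were seen.

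Among NF-kB subunits, inhibitors and targets, the pathway that carries cytokine and stress signals to inflammatory genes, 7 of 18 measured genes were at least 1.5-fold higher and 2 at least 1.5-fold lower, against 5.23% and 6.07% of all genes. The median log2 ratio was 0.32, against -0.05 over all genes, and 0.51 for the same genes in parental cells. TNFAIP3 rose from 5.44 to 46.3 CPM. BIRC3, an inhibitor of apoptosis and NF-kB target, rose from 12.3 to 57.4 CPM (2.22, 2.09 to 2.36). The subunit genes of the non-canonical arm rose as well, RELB from 15.1 to 58.6 CPM (1.96) and NFKB2 from 40.3 to 109.97 CPM (1.45). The adhesion ligand ICAM1 rose from 17.3 to 48.8 CPM (1.49). Of the list, 5 genes rose at least 2-fold and 0 fell that far. Because genes entered on the mean of both libraries, members of any list under 5 CPM in the control were counted only because of their level after Acetalax, and the reverse for members under 5 CPM after Acetalax. The lists were also chosen with earlier results of these data known, so the shares within them are a description only. For each list below, counts past 1.5-fold are to be read beside the same shares of all genes, 5.23% and 6.07%.

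Of 25 chemokines and cytokines 6 reached 5 CPM, and 4 of these were at least 1.5-fold higher and 0 lower, with a median of 1.26 (parental 1.19). IL8, which draws neutrophils and passed the limit only through the Acetalax library, rose from 2.92 to 29.2 CPM (3.32, 3.06 to 3.59). IL18, a cytokine released after inflammasome activation, rose from 27 to 78.9 CPM (1.55), and the chemokine CXCL16 rose from 34.2 to 67.2 CPM (0.97). CX3CL1 was nearly level at 78.3 and 86.6 CPM (0.15). The other 19 were below the limit. Among these, picked after their values were seen, the neutrophil chemokine CXCL1 had 7 counts in the control and 122 after Acetalax, CCL20 had 13 and 175, and IL6 had 21 and 129, and 2 (CXCL5 and CSF3) had 0 in both, which allows up to 3 counts each. Of the IL6 receptor and STAT3 feedback list 12 of 13 genes were measured, IL6R and SOCS2 only through the Acetalax library. The receptor IL6R had 2.63 and 10.2 CPM (1.96), the feedback inhibitor SOCS2 2.33 and 10.6 CPM (2.18) and the kinase PIM1 30.2 and 58.03 CPM (0.94). SOCS3, another feedback inhibitor, went the other way, from 24.1 to 13.8 CPM (-0.81), as did CISH (-0.77).

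The stretches before the starts of 5 risen genes are shown because they hold letters like those bound by NF-kB or by AP-1. Of NF-kB the subunit genes RELB and NFKB2 rose, and of AP-1 the subunit gene FOSL1 rose while FOS fell. Each is the 250 bases upstream of a RefSeq transcription start (GRCh38.p14), read 5′ to 3′ on the gene's strand, with the motif in capitals. For NF-kB GGG, any 2 bases and then TTTCC were searched on both strands. For AP-1 the letters were TGANTCA, with any base at N, which read the same on both strands. The usual AP-1 site has C or G at N, so this search was looser. The TNFAIP3 stretch (chr6:137867009-137867258, plus strand) holds 2 NF-kB matches, starting 67 and 55 bases before the start, and the BIRC3 stretch (chr11:102317234-102317483, plus strand) holds 1. CXCL8, the present name of IL8 (chr4:73740319-73740568, plus strand), and IL1RL1 (chr2:102337007-102337256, plus strand, 1 of 2 listed starts) each hold 1 AP-1 match. Each stretch was marked for 1 pattern only. The CXCL8 stretch also holds tggaatttcc, which differs from the NF-kB letters only in its first base. Letters without capitals therefore do not show that a site is absent. F3, the coagulation starter tissue factor (chr1:94541760-94542009, minus strand), holds 2 AP-1 matches. The IL1RL1 match, TGATTCA, and 1 of the F3 matches, TGAATCA, do not have C or G at N.
TNFAIP3: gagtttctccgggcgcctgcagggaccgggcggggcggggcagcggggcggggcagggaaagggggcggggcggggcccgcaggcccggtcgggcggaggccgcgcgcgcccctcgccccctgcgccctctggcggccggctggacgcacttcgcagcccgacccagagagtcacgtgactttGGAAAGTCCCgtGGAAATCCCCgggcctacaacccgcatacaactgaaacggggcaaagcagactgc
BIRC3: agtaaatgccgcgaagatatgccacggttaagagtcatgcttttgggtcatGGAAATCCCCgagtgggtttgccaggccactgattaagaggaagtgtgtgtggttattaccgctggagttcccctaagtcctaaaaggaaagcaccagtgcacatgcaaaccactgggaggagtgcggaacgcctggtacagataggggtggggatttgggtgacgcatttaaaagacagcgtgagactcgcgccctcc
CXCL8: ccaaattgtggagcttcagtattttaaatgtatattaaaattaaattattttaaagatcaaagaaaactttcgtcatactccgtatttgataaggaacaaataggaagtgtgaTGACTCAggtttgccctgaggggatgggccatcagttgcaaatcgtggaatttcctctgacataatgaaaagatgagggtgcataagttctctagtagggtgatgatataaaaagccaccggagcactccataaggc
IL1RL1: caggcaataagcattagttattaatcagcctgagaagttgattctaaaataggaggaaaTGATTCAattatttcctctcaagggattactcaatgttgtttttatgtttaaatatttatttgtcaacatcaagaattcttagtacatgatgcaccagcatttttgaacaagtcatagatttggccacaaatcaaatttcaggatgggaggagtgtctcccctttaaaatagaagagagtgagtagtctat
F3: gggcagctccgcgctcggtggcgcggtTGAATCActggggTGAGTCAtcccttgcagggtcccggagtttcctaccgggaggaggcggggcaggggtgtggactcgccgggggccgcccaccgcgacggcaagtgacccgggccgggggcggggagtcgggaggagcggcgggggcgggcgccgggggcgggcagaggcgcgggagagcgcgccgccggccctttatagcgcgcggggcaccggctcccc

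Such matches are common enough that they describe the sequence only. The AP-1 letters occur in 6.57% of all 35116 listed stretches and the NF-kB letters in 1.73%. Per gene with at least 1 listed start, the AP-1 letters were present for 20 of 122 genes at least 2-fold higher (16.4%), 18 of 131 at least 2-fold lower (13.7%) and 5.82% of 8810 measured genes. The NF-kB letters were present for 8 of the higher (6.56%), 2 of the lower (1.53%) and 2.68% of all. The cyclic AMP element TGACGTCA was present for 1.64%, 0.763% and 3.54%. The aryl hydrocarbon receptor letters TNGCGTG, searched on both strands, were present for 3.28%, 10.7% and 8.10%. Lower genes had more listed starts each (a mean of 1.77) than higher genes (1.48) or all genes (1.46).

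Growth factor signalling genes moved in both directions. The EGF receptor gene EGFR, which MDA-MB468 carries in many copies, rose from an already high 3285 CPM to 6946 CPM (1.08, 1.07 to 1.09). Its relative ERBB2 fell from 95.2 to 50.8 CPM (-0.90). Among the ligands, TGFA rose from 44.7 to 76.7 CPM (0.78) and HBEGF from 6.50 to 10.2 CPM (0.65), while EGF fell from 9.04 to 4.04 CPM (-1.16). Over the 7 measured members of this list 3 were at least 1.5-fold higher and 2 lower. Of the MAPK feedback genes, phosphatases and adaptors that MAPK signalling induces and that dampen it, 9 of 20 were higher and 2 lower, with a median of 0.40 (parental 0.70). IL1RL1 is on this list, as a gene that such signalling induces. The phosphatase DUSP7 had 11.7 and 30.05 CPM (1.36), DUSP2 had 3.49 and 10.1 CPM (1.53), PHLDA2 had 51.5 and 125 CPM (1.28) and the adaptor SPRY2 had 20.1 and 44.9 CPM (1.16).

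AP-1 subunits did not rise as a group. FOSL1 was the largest, and the small MAF genes followed, MAFF from 23.1 to 49.8 CPM (1.10), MAFK (0.66) and MAFG (0.54, below 1.5-fold). FOS fell from 179 to 71.8 CPM (-1.32, -1.37 to -1.26). In all 3 of 12 genes were higher and 1 lower, the median was 0.06, and that in parental cells 0.47. A list of early genes held EGR, NR4A, KLF and IER genes and others outside these families, such as SGK1, SRF and ZFP36. Of its measured genes 5 of 22 were higher and 2 lower (median 0.23, parental 0.66). The kinase SGK1 rose from 4.62 to 10.1 CPM (1.12), the transcription factor SRF from 69.02 to 115 CPM (0.74) and the mRNA-destabilising ZFP36 from 83.7 to 139 CPM (0.73). The orphan receptor NR4A2 fell from 28.7 to 7.97 CPM (-1.85) and KLF9 from 15.9 to 9.36 CPM (-0.76).

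All 20 measured SRF and actin genes had a ratio above 0, 7 of them past 1.5-fold, with a median of 0.52 (parental 0.50). TAGLN rose from 7.81 to 19.7 CPM (1.34), VCL, which links adhesions to actin, from 389.8 to 746 CPM (0.94) and TPM1 from 439 to 729 CPM (0.73). Of the YAP-TAZ targets 7 of 16 were higher and 0 lower (median 0.41, parental 1.09). F3 rose from 130.02 to 582 CPM (2.16), ANKRD1 from 4.76 to 15.98 CPM (1.75) and the matricellular CYR61 from 287 to 732 CPM (1.35). These medians stayed above 0 under every scaling tried.

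In the TGF-beta and activin list 7 of 19 were higher and 3 lower (median 0.41, parental 0.56). The activin subunit INHBA rose from 14.9 to 46.6 CPM (1.65), THBS1 from 280.4 to 711 CPM (1.34) and the ligand TGFB2 from 120.4 to 253 CPM (1.07). The inhibitor of differentiation ID1, a BMP target, fell from 93.3 to 34.6 CPM (-1.43). A list of matrix proteases and inhibitors also held other matrix genes, such as the receptor ITGA2 and the laminin chain LAMB3. Of its measured genes 6 of 15 were higher and 1 lower (median 0.54). The collagen receptor ITGA2 rose from 26.8 to 97.9 CPM (1.87), and the laminin-332 chain LAMB3 from 22.9 to 74.9 CPM (1.71). The urokinase receptor PLAUR rose from 44.2 to 102 CPM (1.21), and the metalloprotease inhibitor TIMP3 fell from 14.4 to 6.22 CPM (-1.21).

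WNT genes had 4 of 21 higher and 1 lower (median 0.09). The secreted WNT inhibitor DKK1 rose from 51.2 to 229 CPM (2.16, 2.10 to 2.23), and AXIN2, a feedback target of beta-catenin, fell from 17.3 to 7.55 CPM (-1.19). None of 10 Notch genes passed 1.5-fold (median -0.08). Of the mesenchymal genes 4 of 23 reached 5 CPM. The integrin ITGA5 was among these only through the Acetalax library (4.39 to 8.54 CPM, 0.96).

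Of 32 measured epithelial genes, 9 were at least 1.5-fold higher and 5 lower, with a median of 0.10. Among the higher were the stress keratins: KRT17 rose from 270.2 to 1128 CPM (2.06, 2.03 to 2.09), and KRT6A and KRT6B as given above. The tight junction gene CLDN1 rose from 25.5 to 76.3 CPM (1.58), and KRT5, the basal cell keratin, from 935 to 1618 CPM (0.79). EHF, an ETS factor of epithelial differentiation, fell from 436 to 129.7 CPM (-1.75, -1.79 to -1.71), and its relative ELF3, which the rule for named genes does not cover, from 299 to 105 CPM (-1.51). Of the breast lineage factors 0 of 12 were higher and 3 lower (median -0.29): the luminal pioneer factor FOXA1 fell from 113 to 46.7 CPM (-1.28), XBP1 from 433 to 209 CPM (-1.05) and ERBB2 as given above. ESR1 differed by less than counting error (0.01, -0.26 to 0.28).

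A list of efflux pumps, conjugating enzymes and esterases also held cytochrome P450 genes and genes tied to the aryl hydrocarbon receptor. Of its 17 measured genes 4 were higher and 1 lower, with a median of -0.09. Only ABCC4 among the 4 was a pump, conjugating enzyme or esterase. The higher genes were CYP1A1, its relative CYP1B1, which rose from 327 to 692 CPM (1.08, 1.05 to 1.11), TIPARP, which dampens the aryl hydrocarbon receptor and rose from 16.3 to 36.8 CPM (1.18, 1.05 to 1.31), and the efflux pump ABCC4, from 12.9 to 26.8 CPM (1.05). CYP1A1, CYP1B1, TIPARP and NQO1 are known targets of that receptor, which senses planar aromatic compounds. NQO1, named after its value was seen, was at 354 and 333 CPM (-0.09), and the receptor's targets were not counted as a list. The carboxylesterase CES1, which cleaves ester drugs, fell from 10.1 to 5.95 CPM (-0.76). The multidrug pump genes ABCB1 and ABCG2, which the rule does not cover, lay under 5 CPM.

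Chaperones of the endoplasmic reticulum and genes of amino acid stress moved apart. Of the former 6 of 23 were higher and 1 lower (median 0.31, parental 0.20). HSPA5, the chaperone BiP, rose from 509 to 983 CPM (0.95, 0.93 to 0.97), MANF from 40.9 to 88.7 CPM (1.12) and SDF2L1 from 36.9 to 75.7 CPM (1.04). The 1 lower gene was XBP1, which is also a transcription factor of this response. Of the ATF4 and amino acid stress genes 1 of 28 was higher and 8 lower (median -0.35, parental -0.07). DDIT4, an inhibitor of mTORC1, fell from 256 to 80.2 CPM (-1.67), the cystine transporter SLC7A11 from 28.7 to 10.9 CPM (-1.40), TRIB3 from 320.5 to 165 CPM (-0.96), CHAC1 from 20.9 to 10.8 CPM (-0.96) and the serine synthesis enzyme PSPH from 306 to 162 CPM (-0.92). The gene that rose was PPP1R15A, the phosphatase subunit that restores translation, from 49.99 to 83.98 CPM (0.75).

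Other stress lists moved little. Heat shock chaperones had 0 of 16 past 1.5-fold higher and 1 lower (median 0.17), NRF2 targets 0 of 20 higher and 2 lower (median -0.17) and metallothioneins 0 of 6 in either direction (median 0.24). HMOX1, the NRF2-induced haem oxygenase, fell from 28 to 18.1 CPM (-0.63). Hypoxia and glycolysis genes had 3 of 28 higher and 0 lower (median 0.02), led by the peptide hormone ADM (14.4 to 38.1 CPM, 1.40) and the enolase ENO2 (8.65 to 18.5 CPM, 1.10). Sterol and fatty acid synthesis had 0 of 25 higher and 1 lower (median 0.01), the regulator SREBF1 falling from 126 to 48.3 CPM (-1.39).

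In the list of FOXO factors, their targets and energy stress genes 6 of 17 were at least 1.5-fold lower and 2 higher (median -0.27, parental 0.11). PIK3IP1, an inhibitor of PI3-kinase, fell from 9.67 to 2.80 CPM (-1.79), the repressor BCL6 from 52.4 to 15.98 CPM (-1.71) and TP53INP1 from 22.9 to 10.9 CPM (-1.07). The 2 higher members were the insulin receptor substrates IRS1, from 31.7 to 75.8 CPM (1.26), and IRS2, from 23.5 to 48.2 CPM (1.04). In the BCL2 family 0 of 15 passed 1.5-fold upward and 2 fell, both BH3-only killers: BMF from 18.98 to 4.21 CPM (-2.17, -2.40 to -1.95) and BCL2L11, which encodes BIM, from 38.5 to 18.8 CPM (-1.03). The median of the family was 0.18. Of the effectors of lytic death and membrane repair 0 of 20 were higher and 2 lower (median -0.02), near the shares of all genes, 5.23% and 6.07%. The lower genes were NINJ1, which ruptures the dying cell's membrane, from 45.1 to 27.4 CPM (-0.72), and the protease CASP1, from 28.99 to 17.98 CPM (-0.69). MLKL, the effector of necroptosis, had 18.2 and 26.01 CPM (0.52).

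Circadian genes had 0 of 15 higher and 4 lower (median -0.27, parental 0.21): NFIL3 (32.3 to 18.1 CPM, -0.83), BHLHE40 (183 to 105 CPM, -0.80), DBP (27.7 to 16.8 CPM, -0.72) and PER2 (23.4 to 15.3 CPM, -0.61). Retinoid genes had 1 of 14 higher and 4 lower (median -0.43, parental -0.55). DHRS3, which reduces retinal and is induced by retinoic acid, fell from 126 to 32.3 CPM (-1.96) and RARRES3 from 262 to 134 CPM (-0.97), while ALDH1A3, which makes retinoic acid, rose from 494 to 1077 CPM (1.12). Of the interferon-stimulated genes 0 of 20 were higher and 3 lower (median -0.31), namely IFIT3 from 15.3 to 6.12 CPM (-1.32), PARP9 (-1.08) and IFIT2 (-1.07). Immune surface ligands and complement shields had 3 of 19 higher and 0 lower (median 0.09).

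Of the mitosis and G2 genes 35 of 38 had a ratio below 0, and 4 passed 1.5-fold, with a median of -0.33 against -0.71 in parental cells. The phosphatase CDC25C fell from 21.8 to 11.3 CPM (-0.95), CENPF from 527 to 319.6 CPM (-0.72) and KIF20A from 229 to 143 CPM (-0.68). DNA replication and G1-S genes had 1 of 32 past 1.5-fold, the cyclin CCNE1 (0.71), and a median of -0.10, and homologous recombination and repair genes 1 of 33, the kinase ATM (-0.73), and a median of -0.11. Among cyclins and their inhibitors 4 of 14 were higher and 2 lower (median -0.05). GADD45A rose from 172 to 421 CPM (1.3) and the G1 cyclin CCND1 from 219.99 to 446 CPM (1.02), and the CDK inhibitor CDKN2C fell from 51.4 to 20.9 CPM (-1.3).

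Genes for making ribosomes, a classical output of MYC, were slightly higher. All 24 measured had a ratio above 0, 9 passed 1.5-fold and 0 passed 2-fold, and the median was 0.51 in CE cells and 0.29 in parental cells. RRS1 rose from 24.3 to 46.2 CPM (0.93, 0.82 to 1.03), PPAN from 18.3 to 31.6 CPM (0.79), RRP9 from 32.3 to 55.7 CPM (0.79) and MYBBP1A from 72.6 to 124 CPM (0.77). The paper, by contrast, lists MYC target sets as reduced by Acetalax in parental cells of both lines. Its gene sets and its score are not those used here, and the difference was not tested. The ribosomal proteins themselves hardly moved: 0 of 38 passed 1.5-fold, and their ratios lay between -0.17 and 0.03 (median -0.07). The same held for 34 nuclear genes of the respiratory chain (median -0.14) and 13 mitochondrially encoded genes (median -0.07), 0 of which passed 1.5-fold. Mitochondrial RNA took 9.98% of the counts in the control and 8.87% after Acetalax. Under TMM and DESeq2 scaling the medians of the ribosomal proteins and of the mitochondrially encoded genes turned positive, so no direction is given for them.

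Transcripts of ion channels and of volume regulation moved in both directions. Of 29 TRP channel, sodium pump and volume regulation genes 4 were higher and 3 lower at 1.5-fold, 0 at 2-fold, with a median of -0.03. The water channel AQP1 rose from 14.2 to 23.3 CPM (0.71), TRPM2, a relative of TRPM4, from 13.6 to 21.8 CPM (0.68) and the taurine transporter SLC6A6 from 33.3 to 51.6 CPM (0.63). The volume-regulated anion channel subunit LRRC8C fell from 16.3 to 10.7 CPM (-0.61) and the epithelial sodium channel subunit SCNN1A from 143 to 93.5 CPM (-0.61). Calcium handling and NFAT targets had 1 of 23 higher and 2 lower (median 0.04), near the shares of all genes. The factor NFATC2 rose from 13.7 to 27.8 CPM (1.02), and ITPR1, a calcium release channel, fell from 9.85 to 5.05 CPM (-0.97).

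**Figure D3:**
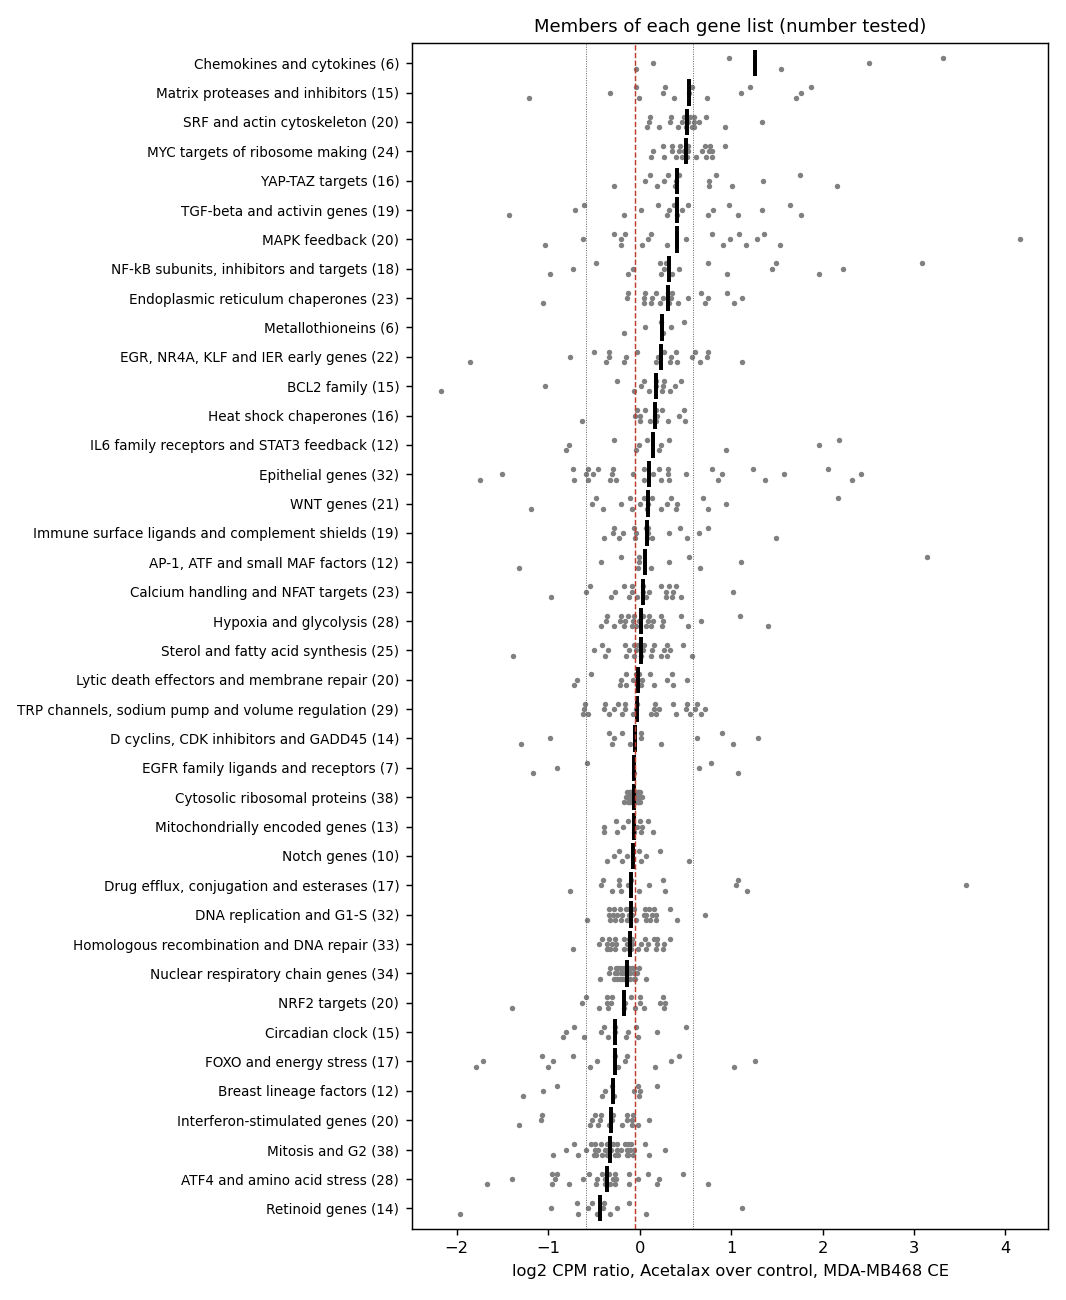
Log2 CPM ratios (Acetalax over control, horizontal axis) of the measured members of 40 gene lists in MDA-MB468 CE cells. Each grey point is a gene, each black bar the list's median, the red dashed line the median of all 10880 genes, and the dotted lines mark 1.5-fold. Lists are ordered by their median, from chemokines and cytokines (1.26) to retinoid genes (-0.43), and the number measured stands after each name.

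Over all 45 lists, the 4 marker lists included, 25 had a median above 0, and 33 did with TMM and 32 with DESeq2 scaling, so the direction of lists whose median lay just below 0 depends on the scaling.

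The same treatment of parental MDA-MB468 cells was used to see where CE cells differed. The 2 pairs share no library. In parental cells 415 of 10768 genes (3.85%) were at least 2-fold higher and 292 (2.71%) at least 2-fold lower, so fewer genes passed 2-fold in CE cells in both directions. With TMM factors the parental counts were 486 and 232, and with DESeq2 size factors 484 and 232, again above the CE counts under the same scaling. Of the 168 genes higher in CE cells 154 had 5 CPM in the parental pair, and all 154 were higher there too, 138 of them at least 2-fold. Of the 180 lower genes 169 could be compared, and 163 were lower in parental cells, 113 at least 2-fold. Over all 10602 genes measured in both pairs, 8096 (76.4%) had ratios of the same sign. In the other direction, 138 of 396 genes at least 2-fold higher in parental cells (34.8%) and 113 of 273 lower ones (41.4%) passed 2-fold in CE cells. The parental rises had a median log2 ratio of 1.37 in parental and 0.80 in CE cells, and the parental falls -1.23 and -0.82. A set chosen by its ratio in 1 pair is expected to be closer to 0 in another, so these medians alone do not show a weaker response. The 168 genes chosen as higher in CE cells had a median of 1.32 there. The 154 comparable ones had 1.77 in parental cells, and 121 of them rose less in CE cells. The 180 genes chosen as lower had a median of -1.32 in CE cells. The 169 comparable ones had -1.20 in parental cells, and 53 of them fell less in CE cells. These differences were not tested.

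Taken gene by gene over the 10602 genes measured in both pairs, the CE ratio was at least 1 lower than the parental ratio in 119 genes (1.12%) and at least 1 higher in 15 (0.141%). Most of the 119, 90 genes, were at least 2-fold higher in parental cells. IL1RL1 went from 2 counts to 1250 counts in parental cells, a log2 ratio of 9.29 (7.43 to 12.34), and the CE ratio minus this was -5.14 (-7.21 to -3.06). IL6R rose from 0.905 to 76.03 CPM in parental cells against 2.63 to 10.2 CPM in CE cells, a difference of -4.43 (-4.95 to -3.91). FOSL1 rose from 6.64 to 360.1 CPM in parental cells, a difference of -2.61 (-2.80 to -2.43).

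The smaller CE ratios came about in unlike ways. DKK1 ended at 203 CPM in parental and 229 CPM in CE cells, but started at 10.9 and 51.2 CPM, so its smaller CE ratio (-2.06, -2.20 to -1.92) lay in a higher control level. F3 started at 48.1 and 130.02 CPM and ended at 833 and 582 CPM (-1.95, -2.02 to -1.88), so both its control and its treated level differed. PPP1R15A started alike, at 46.1 and 49.99 CPM, and ended at 356 CPM in parental but 83.98 CPM in CE cells (-2.20, -2.30 to -2.10). MAFF started at 23.3 and 23.1 CPM and ended at 143 and 49.8 CPM. PIM1 started somewhat higher in CE cells, at 21.3 and 30.2 CPM, and ended lower, at 162 and 58.03 CPM. Over the 119 genes, 21 had a CE control level at least 2-fold above the parental control, 49 had a treated level at least 2-fold below the parental treated level, and 3 had both. These levels make up the difference that chose the genes and are given as a description.

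The WNT ligand gene WNT9A (0.69 in CE and 2.84 in parental cells) and the long intergenic noncoding RNA RP1-140K8.5 (1.09 and 3.57) were also among the 8 lowest differences. CREBRF, a negative regulator of the CREB3 stress factors, was the 1 gene past 2-fold in opposite directions. It fell from 15.2 to 6.62 CPM in CE cells (-1.20, -1.40 to -1.0) and rose from 12.7 to 25.7 CPM in parental cells (1.02). Among the 8 highest differences, PRR15L, ID2 and PPFIBP2 fell less in CE cells than in parental cells. PRR15L fell from 20.02 to 7.30 CPM in CE cells (-1.46) and from 15.4 to 1.85 CPM in parental cells (-3.06), a difference of 1.6 (1.24 to 1.96). ID2, an inhibitor of differentiation, had -0.70 and -2.12, and PPFIBP2 -1.54 and -2.69. RP11-115D7.3, SNPH, PYCRL and HIST2H2BE had CE ratios from -0.52 to 0.11 and parental ratios from -1.71 to -1.0. KLHL29 was the 1 that rose more in CE cells, from 2.97 to 8.47 CPM (1.51, parental 0.28), from a control level far below the parental 23.4 CPM.

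**Figure D4:**
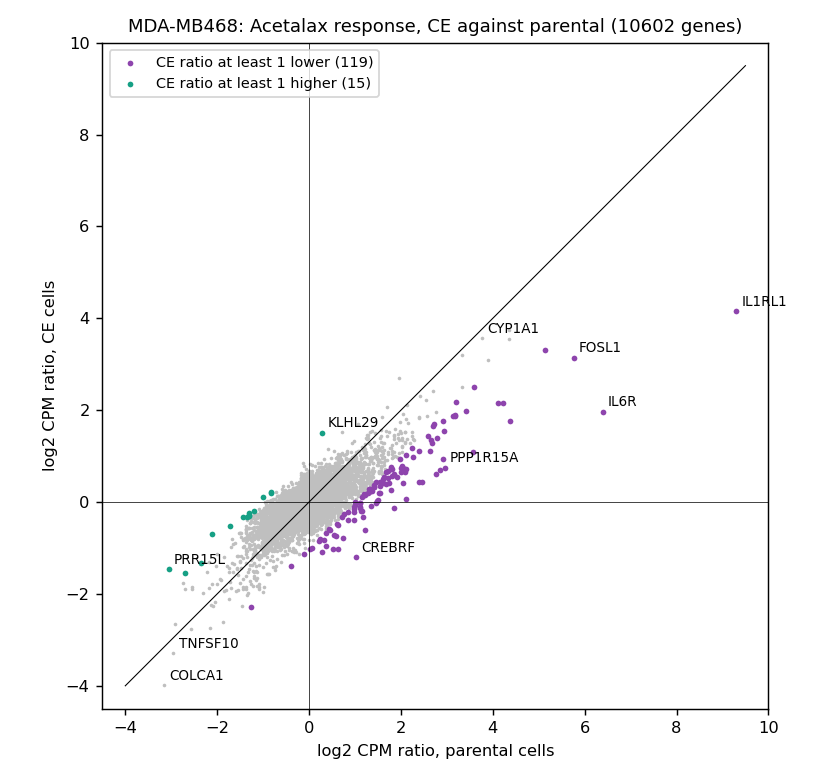
Log2 CPM ratio after Acetalax in parental (horizontal) and CE (vertical) MDA-MB468 cells for 10602 genes with a mean of 5 CPM in both pairs. The diagonal marks equal ratios. Purple points are the 119 genes whose CE ratio was at least 1 lower and teal points the 15 whose CE ratio was at least 1 higher. The rises of IL1RL1, IL6R and FOSL1 lie far below the diagonal, and CYP1A1 lies close to it.

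For other genes, chosen after their values were seen, the CE and parental ratios were close. CYP1A1 rose from 6.93 to 93.97 CPM in parental cells (3.76), and the CE ratio differed by -0.20 (-0.45 to 0.06). The differences were -0.10 for KRT6A (-0.35 to 0.15), 0.06 for ICAM1 (-0.08 to 0.20), -0.08 for IRS1 (-0.20 to 0.04), -0.04 for EHF (-0.10 to 0.02), -0.12 for BMF (-0.44 to 0.19) and -0.04 for BCL2L11 (-0.21 to 0.12). Each of these intervals includes 0, which does not show that the ratios are equal. KRT17 rose a little more in CE cells, by 0.36 (0.32 to 0.40), and so did the ribosome-making genes RRP9 (0.65, 0.52 to 0.79) and RRS1 (0.61, 0.46 to 0.76). The intervals cover counting error only, and how far 2 cultures of 1 kind differ was not measured.

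**Figure D5:**
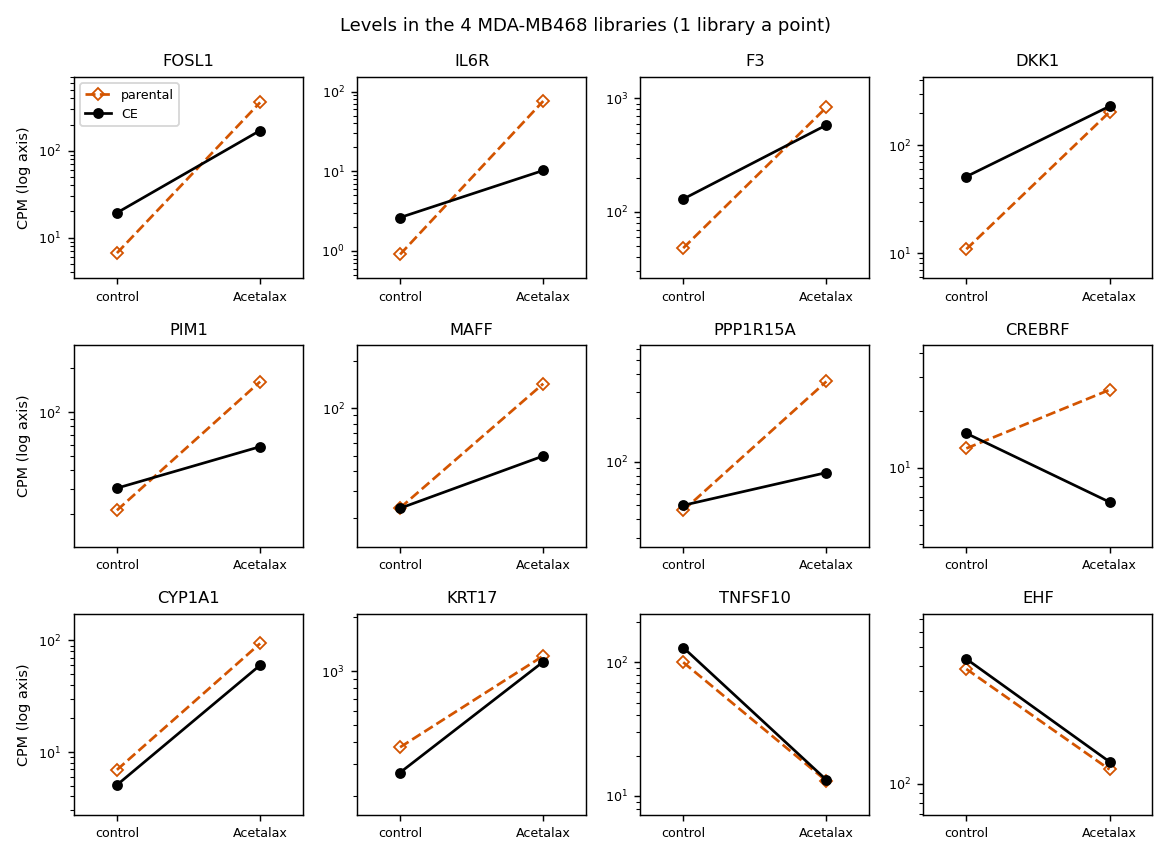
CPM on a log axis in the 4 MDA-MB468 libraries for 12 genes, with parental cells as orange diamonds and CE cells as black points. Each point is 1 library, so there are no error bars. FOSL1, IL6R, F3 and, less so, PIM1 start higher in CE control cells and end lower in treated CE cells. DKK1 starts higher and ends at a similar level. MAFF and PPP1R15A start alike and end lower in treated CE cells. CREBRF moves in opposite directions, and CYP1A1, KRT17, TNFSF10 and EHF run nearly parallel.

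In CE cells of the other line, BT549, 387 of 10199 genes (3.79%) were at least 2-fold higher and 1003 (9.83%) at least 2-fold lower after the same treatment. This excess of falls rested on the scaling by total counts, since TMM factors gave 598 higher and 609 lower and DESeq2 size factors 581 and 627, and they moved the median of all genes there from -0.17 to 0.04 and 0.03. Of the 168 genes higher in MDA-MB468 CE cells 107 had 5 CPM there, and 47 of these were at least 2-fold higher and 6 at least 2-fold lower. Of the 180 lower genes 78 could be compared, of which 34 were at least 2-fold lower and 6 at least 2-fold higher. LIF (44.8 to 622 CPM, 3.79), IL8 (8.68 to 607 CPM, 6.13), FOSL1 (2.73) and BIRC3 (2.59) rose in both. KRT75, KRT6A, KRT6B, KRT34, KRT17 and the COLCA genes were under 1 CPM in BT549 CE cells, and CYP1A1 was low there, at 0.701 and 1.27 CPM. Genes of amino acid stress went different ways in the 2 lines, a difference that was not tested. SLC7A11, which fell in MDA-MB468 CE cells (-1.40), rose from 18.9 to 44.7 CPM in BT549 CE cells (1.24), and the list's median was 0.61 there against -0.35. NR4A2, CREBRF and SOCS2 were also past 2-fold in opposite directions in the 2 lines. SOCS2 was at -1.11 in BT549 CE cells and no longer past 2-fold there with TMM (-0.89) or DESeq2 scaling (-0.90).

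With the measured genes in 5 groups of equal size by span on the genome, the median log2 ratio went from -0.03 in the shortest to -0.11 in the longest. The share at least 2-fold lower went from 1.38% to 2.44%, not steadily, with 1.15% in group 3. The share at least 2-fold higher was 2.34% in the shortest and 1.56% in the longest. In parental cells the median ran the other way, from -0.14 in the shortest to -0.03 in the longest.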

How the data were processed

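RNA was sequenced from 8 samples, 1 library for each of 8 groups, and groups were taken from the sample labels. Per the study's methods and processing notes, the authors aligned reads to hg19 with STAR (version 2.7.11b in the notes) and counted reads per gene. The deposited values are whole-number counts without normalization. The annotation and strand setting are not given in the sources used here. The table had 58154 rows for 55679 identifiers. Repeated rows were used 1 time each, and 28 symbols that had become dates were restored from the identifier.

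CPM used the total count of each library. Genes with a mean of 5 CPM in a pair entered its comparison. The log2 ratio of treated to control CPM carries a 95% Clopper-Pearson interval of the treated share of both counts (scipy 1.17.1), and differences of ratios a normal interval from the 4 counts. Both cover counting error only, since reads without molecular identifiers are not independent molecules. The procedure was tested on simulated data. Scaling factors came from edgeR 4.0.16 and DESeq2 1.42.0 (R 4.3.3). Exon lengths for FPKM came from a GENCODE annotation on hg19.

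Named genes were the 15 largest rises and 15 largest falls, TRPM4, up to 5 members of each of 45 lists (4 of them cell type markers) with the ratios largest in size, and the 8 highest and 8 lowest differences between CE and parental ratios. The members and lists were chosen with earlier results of these data known, and the motifs after the ratios were seen. Of the list members 6 were not matched by symbol and were not analysed here. No column held other samples. Promoter sequences are from RefSeq (GRCh38.p14) and were matched by symbol for 8810 of the 10880 genes. FPKM was used only as an alternative. Some genes that the rule names are not reported here.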

Additional observations from a re-analysis of the deposited data

Results flagged for a closer look

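Genes past 2-fold in opposite directions in 2 backgrounds were picked out, and none of these differences was tested, since each background has 1 library a side. CREBRF was the 1 such gene between CE and parental MDA-MB468 cells, with log2 ratios of -1.20 and 1.02, a difference of -2.22. Between MDA-MB468 CE and BT549 CE cells there were 12 such genes, of which 4 are named above. NR4A2 had -1.85 and 3.45, a difference of -5.31. CREBRF had -1.20 and 2.09, a difference of -3.29. SLC7A11 had -1.40 and 1.24, a difference of -2.64. SOCS2 had 2.18 and -1.11, a difference of 3.29, and its BT549 ratio was short of 2-fold with TMM (-0.89) and DESeq2 scaling (-0.90). With 1 library a group, no sample could be compared with others of its group.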

How the results depend on the processing

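Counts of changed genes in the CE pair moved most with a looser filter and on the FPKM scale, and no ratio past 2-fold among the named genes changed sign under any alternative. With a mean of 1 CPM, 281 genes were at least 2-fold higher, 410 at least 2-fold lower and 1281 at least 1.5-fold lower, the CE ratio was at least 1 above the parental ratio in 71 genes and at least 1 below it in 224. With no filter the counts were 1504 and 2875 at 2-fold and 3105 and 4939 at 1.5-fold, since genes of few counts then entered. On the log2(FPKM + 1) scale they fell to 97 and 71 at 2-fold and 337 lower at 1.5-fold, and on the log2(CPM + 1) scale the 15 genes with a higher CE ratio became 4, because the added 1 shrinks the ratio of low genes. The log2 ratio of TRPM4 was 0.063 under TMM and 0.055 under DESeq2 scaling. For BT549 CE cells TMM gave 598 higher and 609 lower and DESeq2 581 and 627, against 387 and 1003. The other recomputed counts, of the CE pair, the parental pair, the differences between them and the 81 genes called alike in both CE lines, stayed within 1.5 times of the values given. The alternatives for the BT549 and parental pairs alone and for the 81 genes were added after seeing the data. No paired analysis was possible because the results come from single pairs of libraries and from no test, and the labels number no replicates. A fit of Acetalax paired over the 4 backgrounds was not run. No replicate could be left out.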
